A study of Drosophila melanogaster with 12 samples.

Results

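Transcripts that differ between the phases of the day in the same direction on a day with a temperature cycle and on the next day without one were looked for in heads of clockless flies. Every array entered the comparison. The 6 arrays taken at 2, 6 and 10 h, called here the cold phase, were set against the 6 taken at 14, 18 and 22 h, the warm phase, with the day as a term of the fit. Of 13966 probe sets tested, 6291 had a difference of the same sign on both days, 2268 of them higher and 4023 lower in the cold phase, and these are the probe sets described below. The question was which transcripts kept their cold or warm side once the temperature no longer changed.

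All flies were Drosophila melanogaster of the genotype y w; tim01, kept in constant darkness. On the first day sampled (CA, for cold and ambient) they lived in a thermocycle with 12 h at 18 °C, the cold phase, and 12 h at 25 °C, the warm phase. By the methods of the study, this was the last day of an entrainment that began in early pupae. It went on for 4 more days after the adults had emerged. On the second day (AA, for ambient and ambient) the temperature was 25 °C throughout, so that its cold phase was cold in name only. Each day gave 1 array at each of 6 times, which makes 4 groups of 3 arrays: CA cold, CA warm, AA subjective cold and AA subjective warm. Every group carried the y w background and the tim01 allele, and arrays of flies with a working clock were not used here. Each array held RNA pooled from many heads that had been broken off frozen flies and collected on sieves. The labels give neither the age nor the sex of the flies, nor do they say whether the time points came from separate cultures, so the errors below measure the spread between arrays of different hours.

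In flies with a working clock, the transcription factors CLK and CYC switch on per and tim, and the PER and TIM proteins then return to the nucleus and shut CLK and CYC off. CLK and CYC also drive vri, Pdp1 and cwo, transcription factors that feed back on the same loop. A temperature cycle can set this loop, which then goes on at constant temperature. The tim01 allele removes working TIM, and with it the loop.

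The values are log2 signals that the authors computed by RMA (robust multi-array average), so a difference of 1 is a doubling of signal and the normalization hides any change shared by most transcripts. Array medians lay between 5.18 and 5.22. The array that differed most was that of CA 18 h. Its correlations with the rest were 0.980 to 0.990, and its spike-in controls averaged 7.91 against 8.65 to 9.13 on the other 11. The CA 6-h, AA 2-h and AA 6-h arrays had higher medians over the listed gut and male reproductive genes than the other 9, as described below. The tim probe set with the highest signal read 7.27 to 7.79 over the 12 arrays. Which part of the transcript its probes cover was not given in the sources used here, so this level checks no label. Of the defining markers, trp of photoreceptors read 9.05 to 9.68, repo of glia 5.19 to 6.15, elav of neurons 5.18 to 6.46 and Yp1 of the fat body 13.74 to 13.95. Of the other head markers, nSyb of neurons read 6.04 to 7.47, Gs2 of glia 10.135 to 10.713 and Act88F of muscle 4.08 to 4.89. In the fat body apolpp read 9.77 to 10.83, and Fbp1 read 6.39 to 6.69 in the cold phase and up to 8.46 in the warm phase. Probe sets for ninaE, norpA, Syt1 and Mhc were not matched and are not analysed here.

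No probe set showed a phase difference shared by both days that passed over all probe sets. In limma, with Benjamini-Hochberg adjustment, 0 of 13966 probe sets (0%) had an adjusted p under 0.05, and the smallest adjusted p was 0.714. At an unadjusted p under 0.05 there were 540 probe sets (3.87%), with 285 (2.04%) higher and 255 (1.83%) lower in the cold phase. Of these 540, 280 higher and 249 lower ones had the same sign on both days, beside 45.0% of all probe sets. Opposite signs shrink the shared difference and widen its error, so a small p nearly requires the same sign. The count is therefore no separate evidence that the days were alike. The median absolute difference over both days was 0.05 and the 95th percentile 0.17. The median unadjusted 95% interval reached 0.14 to either side of the estimate. For a typical probe set a shared difference well below that size was not detectable even without adjustment. This width is no detection limit after adjustment, since the difference of 0.86 in Rm62, described below, did not pass either. The other model of daily change, 24-h cosine and sine terms in place of the step between phases, found 0 (0%) with an adjusted p below 0.05 (smallest 0.826) and 667 at an unadjusted p under 0.05 (4.78%). Of those 667, 342 had their fitted peak in the cold phase and 302 also had an unadjusted p under 0.05 for the step between phases.

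The days pointed opposite ways more often than the same way. A share of 45.0% of probe sets had the same sign, 4159 probe sets were higher in the cold phase of CA and lower in that of AA, and 3481 were the reverse. Across probe sets, the CA and AA differences had a Pearson correlation of -0.11 and a Spearman correlation of -0.21. These describe probe sets that share the same 12 arrays and are not independent. The share of the same sign was 51.1% without the AA 2-h array and 52.7% without the 2- and 14-h arrays of both days. The median absolute difference was 0.07 in CA and 0.06 in AA.

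Probe sets picked on one day were then read on the other, whose arrays had no part in the choice. Of 784 probe sets that had an unadjusted limma p under 0.05 on CA alone, 244 (31.1%) had the same sign in AA. With that same sign, 19 (2.42%) also had an unadjusted p under 0.05 in AA, and a further 48 had it with the opposite sign. Of all probe sets, 5.40% reached that p in AA with either sign, a share to be set against the 19 and 48 together. Of 754 picked in AA alone, 335 (44.4%) had the same sign in CA. That p was reached in CA by 19 (2.52%) with the same sign and by 48 with the opposite sign, beside 5.61% of all with either sign. With a stricter p under 0.01, 43 of 146 CA probe sets (29.5%) and 106 of 182 AA probe sets (58.2%) had the same sign on the other day. The share of 31.1% ranged from 21.6% without the CA 14-h array to 44.6% without the CA 22-h array.

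**Figure D1:**
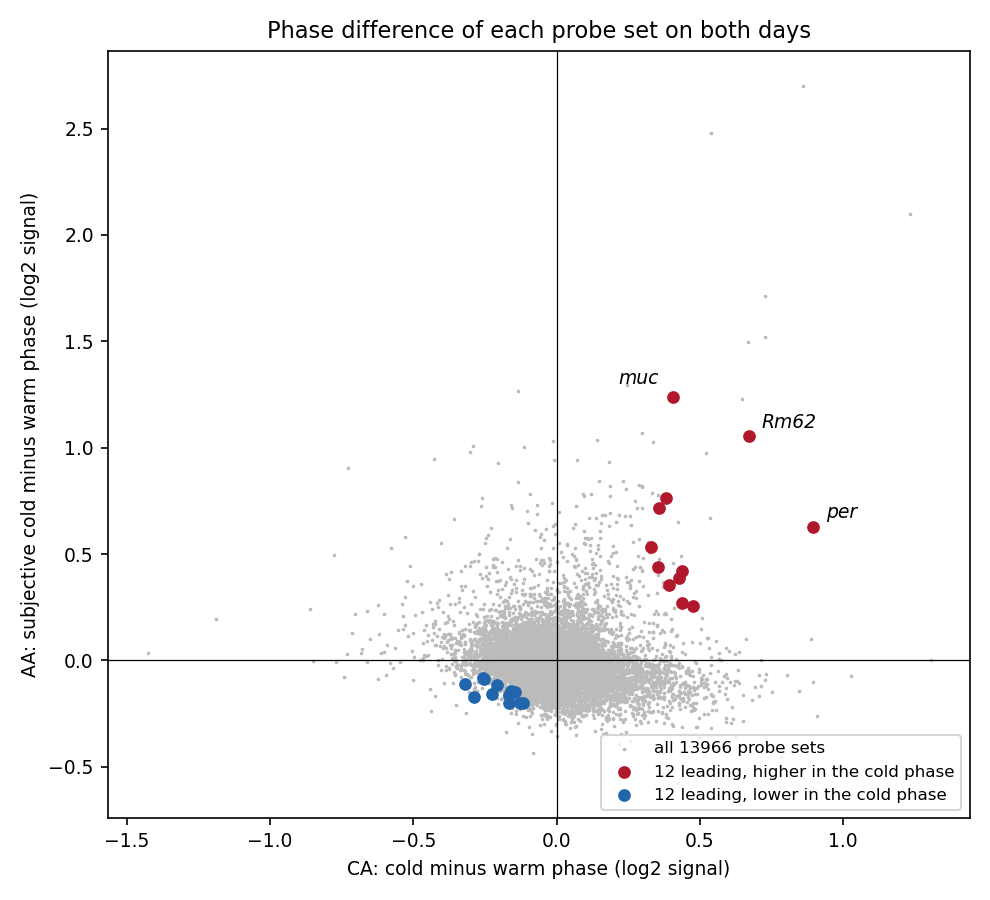
Cold phase minus warm phase in log2 signal for each of 13966 probe sets, on CA along the horizontal axis and on AA along the vertical axis. The 12 leading probe sets on each side are coloured and lie in the quadrants where both days have the same sign. The higher ones reach 1.24 (muc, AA), whereas the lower ones go no further than -0.32 (CA).

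A test of the difference between the days gave no call either. In limma 0 probe sets (0%) had an adjusted p under 0.05 for the change of the phase difference from CA to AA, the smallest being 0.252, and 1104 (7.9%) had an unadjusted p under 0.05. Neither a shared difference nor a changed one can therefore be assigned to any single transcript at this threshold.

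Separation of the arrays gives a view that needs no model. The 3 cold arrays lay apart from the 3 warm arrays in the same direction on both days for 66 probe sets (0.473%), 34 higher and 32 lower in the cold phase. Random order of the arrays within each day would give such a separation with a probability of 0.005. The share found is no larger than that, so the count is no evidence of a shared difference. The higher ones differed by 0.10 to 0.86 with a median of 0.33, and the lower ones by -0.06 to -0.20 with a median of -0.14. Differences of 0.3 or more occurred in 17 of the 34 higher and in 0 of the 32 lower probe sets. In 13 probe sets all 6 cold arrays lay apart from all 6 warm arrays, 2 of them higher and 11 lower in the cold phase. None of these passed (limma adjusted p = 0.994 in each). The genes of these 13, unless among the leading ones, were named after their values were seen.

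The 2 higher ones were SCAP, the escort of the sterol regulatory element-binding protein, and Dyb, a dystrobrevin of the dystrophin complex. SCAP read 6.04 to 6.28 on the cold arrays and from 5.87 upward on the warm arrays, a difference of 0.19 (SE 0.05, limma adjusted p = 0.994). Dyb read 5.44 to 5.54 and 5.28 to 5.42. In both genes the gap between the phases was narrower than the spread within a phase. Of the 11 lower ones, CCT6, a subunit of the cytosolic chaperonin that folds actin and tubulin, read 7.17 to 7.44 on the cold and 7.46 to 7.63 on the warm arrays. Its difference was -0.24 in CA and -0.07 in AA. The cell adhesion gene dpr10 read 5.40 to 5.54 and 5.54 to 5.87, and noi, which encodes a splicing factor subunit, read 4.96 to 5.11 and 5.12 to 5.30. Signals of otk, upd1, wus and CG5863 lay between 1.79 and 3.03, below the 20th percentile of the arrays, which averaged 3.71.

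Leading probe sets were the 12 on each side with the smallest p among those with 1 gene, the same sign on both days and a mean above that 20th percentile. None passed. Those higher in the cold phase had limma adjusted p values of 0.714 to 0.906 and differences of 0.35 to 0.86, and those lower had an adjusted p of 0.994 and differences of -0.15 to -0.23. An exact permutation of the phase labels within each day, two-sided, gave p from 0.005 to 0.015 on the higher side and from 0.005 to 0.02 on the lower side. The smallest p its 400 arrangements allow is 0.005, and because the probe sets were picked by their p these values describe them and are no further evidence. The next probe sets on the higher side, just outside the 12, were those of Mid1 (0.26), olf413 (0.20) and dpr9 (0.54), and on the lower side those of Cpr76Bd, CG12259 and kat80 (-0.14, -0.17 and -0.15).

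The period gene (per), whose protein is the partner of TIM and the inhibitor of CLK and CYC, had the clearest profile of any core clock gene. Its log2 signal on the CA arrays was 7.36, 8.01 and 7.91 in the cold phase and 7.09, 6.46 and 7.04 in the warm phase. On the AA arrays it was 7.02, 6.67 and 7.35 in the subjective cold phase and 6.45, 6.25 and 6.45 in the subjective warm phase. Within each day the phases did not overlap, but the AA cold arrays at 2 and 6 h read no higher than the highest CA warm array. Group means were 7.76 ± 0.35 and 6.87 ± 0.35 in CA and 7.01 ± 0.34 and 6.39 ± 0.12 in AA (SD, n = 3). The shared difference was 0.76 (SE 0.15, 95% interval 0.45 to 1.07), or 1.70-fold, with 0.90 in CA and 0.63 in AA. It did not pass (limma adjusted p = 0.714, and at least 0.257 over the alternatives, exact permutation p = 0.005), and it stayed between 0.66 and 0.85 when any 1 array was left out. By northern blot, a different measure, the study reported temperature-driven responses of per, tim, Clk and cry in tim01 flies that did not last in constant conditions.

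Rm62, a DEAD-box RNA helicase, read 8.86, 9.20 and 9.07 in the CA cold phase and 8.53, 7.72 and 8.86 in the CA warm phase. In AA it read 8.52, 8.50 and 9.16 against 7.96, 7.52 and 7.55. Its shared difference was 0.86 (SE 0.18), with 0.67 in CA and 1.05 in AA. The groups lay apart on both days, by less than 0.01 between the CA 2-h and CA 22-h arrays.

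Couch potato (cpo), an RNA-binding protein of the nervous system linked to reproductive dormancy in flies, had 2 probe sets among the 12. The brighter one read 7.90, 8.02 and 7.81 against 7.57, 7.22 and 7.64 in CA, and 7.65, 7.56 and 7.80 against 7.38, 7.21 and 7.26 in AA. It had the smallest p of all probe sets, with a difference of 0.41 (SE 0.08), nearly equal in CA (0.43) and AA (0.39). The dimmer one differed by 0.35 (SE 0.08), and another probe set of cpo by 0.19, with 0.33 in CA and 0.06 in AA. All 3 probe sets of the gene thus had higher values in the cold phase on both days, and in each the arrays of the phases lay apart on both days.

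SoxN, a Sox transcription factor of the nervous system, stood at 6.71 ± 0.12 and 6.31 ± 0.12 in CA and at 6.43 ± 0.24 and 6.08 ± 0.15 in AA (SD, n = 3), a difference of 0.37 (SE 0.08). Its second probe set differed by 0.33 (0.51 in CA and 0.15 in AA). The synaptic recognition gene dpr9 differed by 0.40 (SE 0.09), and its other probe sets by 0.54 and 0.17. OtopLa, a proton channel of the otopetrin family, read 6.74, 6.88 and 6.73 against 6.40, 6.27 and 6.70 in CA and 6.54, 6.42 and 6.99 against 6.25, 6.09 and 6.01 in AA. Its difference was 0.43 (SE 0.10), and 0.33 in its second probe set. Each further probe set of these 3 genes had the same sign on both days.

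Star (S), which carries the EGF receptor ligand Spitz out of the endoplasmic reticulum, read 5.57, 5.44 and 5.42 against 4.97, 4.84 and 5.20 in CA and 5.18, 5.09 and 5.37 against 5.04, 4.89 and 4.95 in AA, with a difference of 0.37 (SE 0.07). The kinase gene misshapen (msn), upstream of JNK, read 6.57, 6.46 and 6.56 against 6.18, 5.83 and 6.26 in CA and 6.34, 6.24 and 6.34 against 6.23, 5.80 and 5.63 in AA. Its cold arrays varied little on either day, and its difference was 0.44 in CA and 0.42 in AA. The ubiquitin ligase gene Trc8 differed by 0.57 (SE 0.13) and CG32772 by 0.54 (SE 0.12), with 0.23 and 0.33 in the other probe sets of CG32772. For muc, a subunit of the pyruvate dehydrogenase complex of mitochondria, the values were 10.26, 10.36 and 10.23 against 10.02, 9.35 and 10.27 in CA and 10.16, 9.78 and 10.49 against 9.32, 8.63 and 8.76 in AA. Its CA 22-h array read as high as the CA cold arrays, so that in CA the phases overlapped. The muc difference was 0.41 in CA and 1.24 in AA, a change between days that did not pass (limma adjusted p = 0.600).

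These 12 probe sets followed a common course over the arrays. Relative to the mean of each probe set over all arrays, their average was 0.33, 0.45 and 0.38 in the CA cold phase and -0.02, -0.37 and 0.16 in the CA warm phase. In AA it was 0.09, -0.06 and 0.38 and then -0.30, -0.52 and -0.54. The CA 18-h array was the lowest CA array in 11 of the 12, and the AA 10-h array the highest AA array in 11 of the 12. No probe set of the 12 had all 6 cold arrays above all 6 warm arrays.

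A component of all probe sets moved with this course. The second principal component, which held 19.1% of the variance between arrays, was highest on the CA 22-h (0.46), AA 10-h (0.42) and CA 6-h (0.41) arrays and lowest on the AA 18-h (-0.42), AA 22-h (-0.39) and CA 18-h (-0.24) arrays. The 3 lowest arrays were all of the warm phase, and 2 of the 3 highest of the cold phase. The part of this component in the differences of the leading genes was not tested. All 12 kept their sign in each of the 21 alternative fits, and the smallest difference reached when any 1 array was left out was 0.30. As they were picked by p and sign on these same arrays, this was largely fixed by the choice. Some of the fits also leave the difference itself unchanged.

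**Figure D2:**
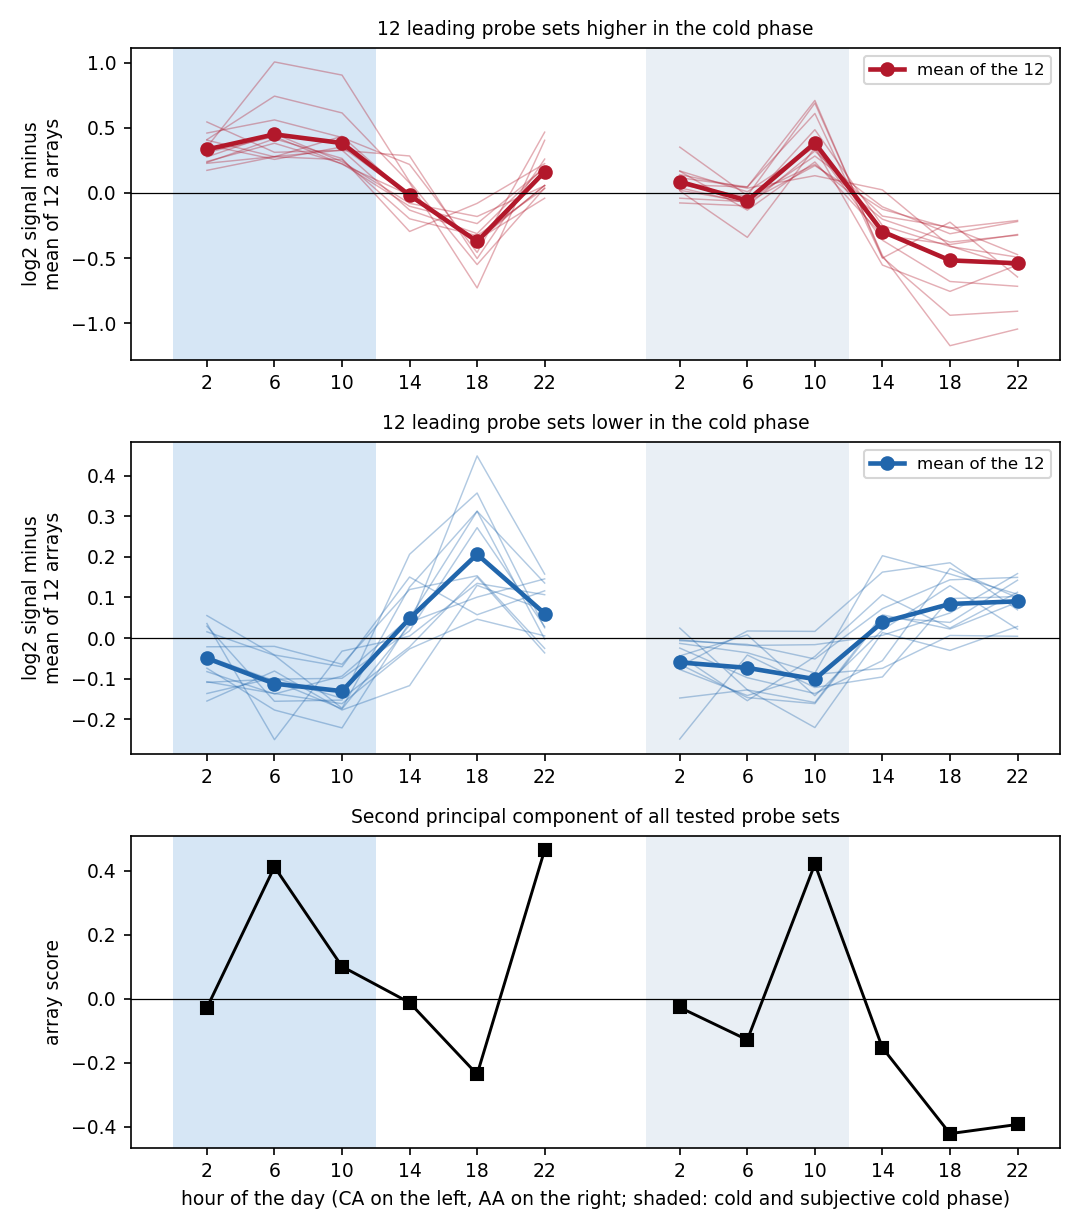
Log2 signal minus the mean over 12 arrays for the leading probe sets higher (top) and lower (middle) in the cold phase, by hour on CA (left) and AA (right), with thin lines for probe sets and thick lines for their mean, and the second principal component (bottom, array score). The mean of the higher set is low on the CA 18-h array (-0.37) and at 14 to 22 h of AA (-0.30 to -0.54). The mean of the lower set stays between -0.13 and 0.21, and its single probe sets between -0.25 and 0.45.

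The lower side held smaller differences of mostly dim to middling transcripts. Dp, the partner of the cell cycle factor E2F, read 5.07, 4.98 and 4.95 against 5.17, 5.08 and 5.14 in CA and 4.87, 4.89 and 4.86 against 5.08, 5.04 and 5.11 in AA. Its difference was -0.16 (SE 0.04, limma adjusted p = 0.994, exact permutation p = 0.005), and the phases lay apart on both days, by 0.01 or less in CA.

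The gene of mRpL50, a mitochondrial ribosomal protein, stood at 6.37 ± 0.03 and 6.51 ± 0.04 in CA and at 6.49 ± 0.05 and 6.64 ± 0.06 in AA (SD, n = 3), with nearly equal differences of -0.14 and -0.15. The mitochondrial release factor gene mRF1 stood at 3.61 ± 0.07 and 3.86 ± 0.05 in CA and at 3.75 ± 0.01 and 3.84 ± 0.08 in AA, and in it all 6 cold arrays lay below all 6 warm arrays. The same held for ebd1, a nuclear cofactor of Wingless signalling, with a difference of -0.16. Its second probe set differed by 0.01, with opposite signs on the days.

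The remaining leaders on this side were grnd, the receptor for the tumour necrosis factor Eiger (-0.18), the endosomal sorting gene Vps60 (-0.23), the centrosome gene spd-2 (-0.16, and 0.02 in its second probe set), the cell adhesion gene beat-IIIa (-0.22), the isoprenoid synthesis gene qm (-0.16) and the predicted genes CG6023, CG10654 and CG12213 (-0.19, -0.15 and -0.17). The averages of the 12 over arrays were -0.05, -0.11 and -0.13 and then 0.05, 0.21 and 0.06 in CA, and -0.06, -0.07 and -0.10 and then 0.04, 0.08 and 0.09 in AA. The cold and warm arrays lay apart on both days in 6 of the 12. All 12 kept their sign in all 21 alternative fits, which again was largely fixed by how they were picked.

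Among 15 core clock genes matched of 19 listed, 6 had the same sign on both days, 5 higher and 1 lower in the cold phase. Over all genes 45.7% had the same sign. None passed, and 4 had an unadjusted limma p under 0.05, all on the higher side: per, dco, vri and cwo. That is 26.7% of the list, beside 3.62% of all 10844 genes. Of these 4, vri had opposite signs on the days and so shows no shared difference. This list and those below were chosen with earlier results of these data known, so such shares describe the lists and are no independent evidence.

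After per, doubletime (dco), the casein kinase that phosphorylates PER and marks it for degradation, had the most even pair of differences, 0.37 in CA and 0.37 in AA (SE 0.17 each). It read 7.46, 7.56 and 7.58 against 7.33, 6.71 and 7.46 in CA and 7.10, 7.15 and 7.63 against 7.0, 6.89 and 6.88 in AA. The phases lay apart on both days, in CA by less than 0.01, with the CA 22-h array next to the cold ones. The shared difference of 0.37 (SE 0.12) had a limma adjusted p of 0.994 and was 0.27 to 0.43 when any 1 array was left out.

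In the brightest probe sets of cwo, vri and Pdp1 the difference was larger in CA than in AA, and in the second probe set of cwo it was not. For cwo, a repressor of the same target genes, the values were 6.87, 6.54 and 6.66 against 6.35, 5.34 and 6.40 in CA, and 6.27, 6.40 and 6.71 against 6.44, 6.31 and 6.35 in AA. Its shared difference of 0.38 (SE 0.17) was 0.19 without the CA 18-h array, the lowest of all. The second cwo probe set had 0.17 in CA and 0.30 in AA. The repressor gene vri read 9.09, 8.83 and 9.07 against 8.32, 7.86 and 8.40 in CA and stayed between 8.32 and 8.58 in AA, with differences of 0.80 and -0.07. Its change between the days did not pass (limma adjusted p = 0.336). Pdp1, the activator of Clk, differed by 0.48 in CA and by -0.0043 in AA.

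Clk and cry, the second of which encodes the blue-light receptor of the clock, had lower values in the cold phase of CA and not in that of AA. Clk differed by -0.32 and 0.04 and cry by -0.46 and 0.17 in CA and AA. Of the other members, jet, a light-response ubiquitin ligase subunit gene, was lower in the cold phase on both days, with differences of -0.14 and -0.02. slmb and wdb were higher on both days, with shared differences of 0.10 each. The brightest tim probe set differed by 0.03 in CA and -0.11 in AA, and the shared difference of -0.04 was 0.03 without the AA 2-h array. Of the other tim probe sets, the brighter, with a mean of 5.53, differed by 0.62 in CA and 0.03 in AA. The dimmer had a mean of 2.37, below the 20th percentile of the arrays, and differed by 1.31 and 0.0033. Their same sign on both days thus stands for a difference in CA beside one near 0 in AA.

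**Figure D3:**
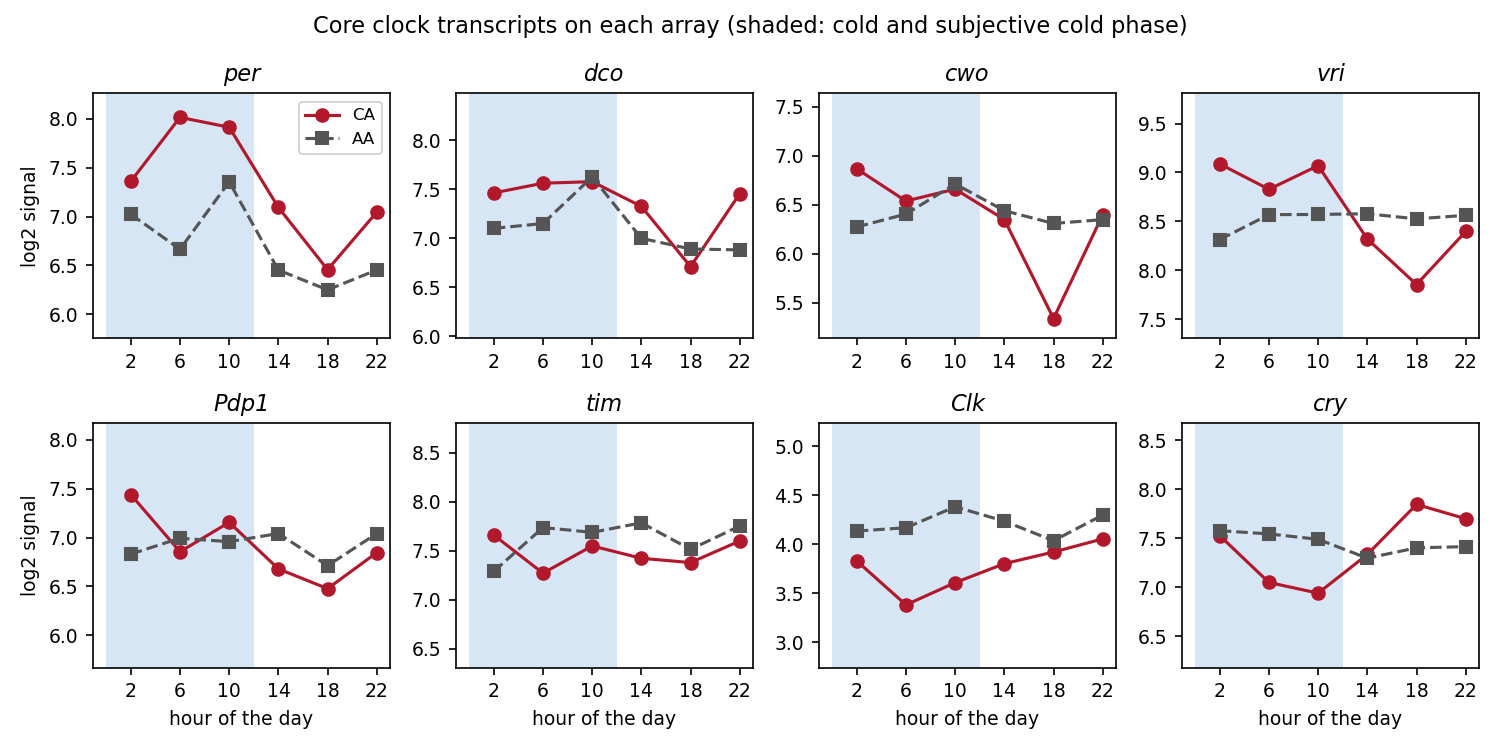
Log2 signal of 8 core clock transcripts by hour, with CA as circles and solid lines and AA as squares and broken lines, each panel spanning the same range around its own mean. per has higher values at 2 to 10 h on both days (differences of 0.90 and 0.63), while vri does so on CA alone (0.80 and -0.07).

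At 0.5 or more in size over both days stood 35 probe sets, 34 of them higher in the cold phase, and 32 of the 35 had the same sign on both days. They were counted after their values were seen. In 15 of them the CA 6-h, AA 2-h and AA 6-h arrays, all of the cold phase, read above each of the other 9 arrays. The remaining 19 higher ones did not have that shape, and 17 of these differed by 0.5 or more without those 3 arrays. Since the shape was defined on the arrays then left out, the values without them restate this split. They also rest on a single AA cold array, that of 10 h, the highest AA array in 11 of the 12 leading probe sets of the higher side.

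The 15 included genes of male reproductive tissue and of the gut. EbpII, of the ejaculatory bulb, read 5.58, 5.62 and 6.96 on those 3 arrays and 3.39 to 3.90 on the other 9. Its difference of 1.12 became -0.11 without them. The accessory gland gene Mst57Da read 6.76, 6.66 and 7.66 on them and 4.99 to 5.40 elsewhere, and its difference went from 0.94 to -0.02. Acp95EF, of the same gland, went from 0.75 to 0.02, and the digestive trypsin gene alphaTry from 0.56 to -0.06. Cyp4g1, a P450 of the oenocytes that make the waxes of the cuticle, went from 1.67 to -0.12. For these genes the shared sign on both days was gone or reversed in direction once 3 arrays were left out.

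Of 30 male reproductive genes matched, 27 (90%) had the same sign on both days, 26 higher and 1 lower. Their median shared difference was 0.16, and 5 (16.7%) had an unadjusted limma p under 0.05, all higher. Of 43 gut genes matched, 29 (67.4%) had the same sign, 25 higher and 4 lower. Their median was 0.06, and 2 (4.65%) had an unadjusted limma p under 0.05, a share near that of all genes. Over all genes the median was -0.02, 45.7% had the same sign and 3.62% had an unadjusted limma p under 0.05. Array medians of the male list were 0.15 on CA 6 h, 0.21 on AA 2 h and 0.41 on AA 6 h and -0.16 to -0.04 on the other 9. Those of the gut list were 0.13, 0.23 and 0.09 against -0.15 to 0.04. Without those 3 arrays the medians were -0.04 and -0.07. Ovary genes, also of the abdomen, had a median of -0.04, and none of 20 had an unadjusted limma p under 0.05. The summed level of the male list spanned 11.68 to 12.06 on the cold and 11.57 to 11.88 on the warm arrays, and that of the gut list 11.63 to 12.13 and 11.63 to 11.73. The gut sum was 12.13, 12.13 and 12.10 on CA 6 h, AA 2 h and AA 6 h, above the other 9. The male sum did not set those 3 arrays apart. It was 11.79, 11.83 and 12.06 on them, beside 11.85 on CA 18 h and 11.88 on AA 22 h. The defining male gene Acp26Aa read 2.46 at most, below the 20th percentile of the arrays. The other defining male genes, SP and Mst87F, lay above it, at 5.251 to 6.021 and 5.655 to 6.066. SP differed by 0.16 in CA and 0.19 in AA, and Mst87F by 0.07 and 0.15.

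Among the 17 others were Rm62, muc and per, described above, and Chchd2, a protein of mitochondria, with 0.77 (0.25 in CA and 1.30 in AA, and 0.73 without the 3 arrays). Ref1, an mRNA export factor, differed by 0.57, the synaptic matrix gene Hasp by 0.56, and Ythdc1, a nuclear reader of methylated RNA, by 0.50. Hsc70-4, the constitutive Hsp70 chaperone of the cytosol, differed by 0.59 but changed between the days, with 0.14 in CA and 1.04 in AA (limma adjusted p of that change 0.574). It read 10.60, 10.51 and 10.48 against 10.66, 9.88 and 10.63 in CA and 10.37, 10.18 and 10.67 against 9.65, 9.23 and 9.23 in AA. In CA its phases overlapped at 14 and 22 h, and in AA they did not.

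**Figure D4:**
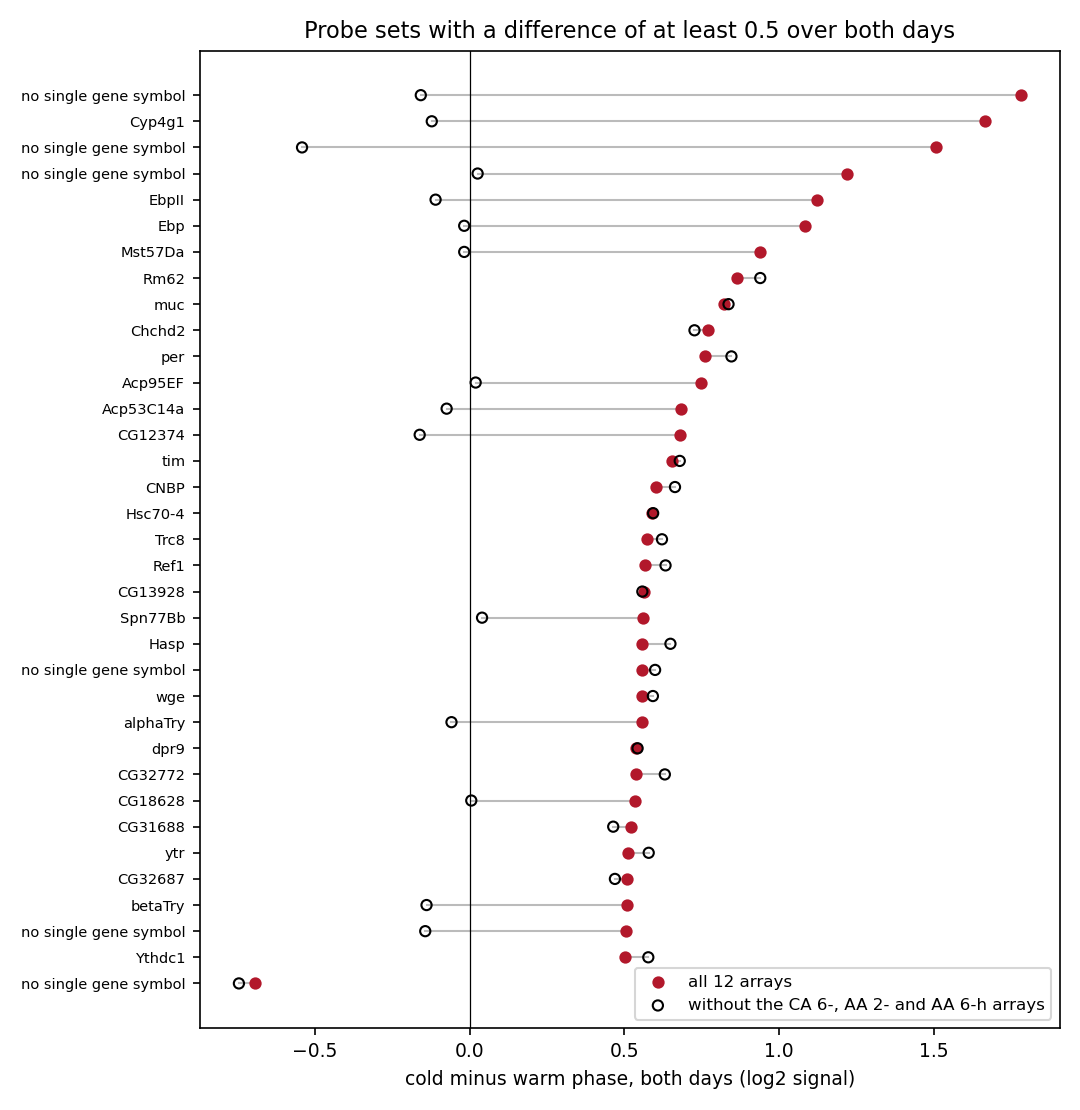
Difference between cold and warm phase over both days in log2 signal for the 35 probe sets with at least 0.5 in size, with all 12 arrays (filled) and without the CA 6-h, AA 2-h and AA 6-h arrays (open). Probe sets such as Cyp4g1 (1.67 to -0.12) and EbpII (1.12 to -0.11) move to the zero line or past it, and Rm62 (0.86 to 0.94) and per (0.76 to 0.85) do not.

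Splicing regulators had higher values in the cold phase in 20 of 27 genes (74.1%, beside 40.6% of all genes), with a median of 0.06. On both days 16 (59.3%, beside 45.7% of all genes) had the same sign, 11 higher and 5 lower. An unadjusted limma p under 0.05 was found in 6 (22.2%, beside 3.62% of all genes), 5 on the higher side and 1 on the lower. SRPK, the kinase of SR splicing factors, read 5.98, 5.89 and 5.88 against 5.68, 5.32 and 5.85 in CA and 5.71, 5.35 and 5.94 against 5.24, 5.11 and 5.21 in AA. Its phases lay apart on both days, with a difference of 0.39 (SE 0.10, limma adjusted p = 0.994). The gene of a protein of U1, the spliceosome particle that finds the start of introns, differed by 0.41 (SE 0.11), with 0.18 in CA and 0.63 in AA. The other 3 on the higher side were pasilla (ps, 0.42), Psi (0.24) and the SR protein gene B52 (0.37). The sex determination gene tra was the lower one (-0.13). The array medians of this list were highest on the CA 22-h and AA 10-h arrays (0.25 each) and lowest on the AA 18-h array (-0.19), as the second component was, and its median was 0.02 to 0.09 when any 1 array was left out.

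Of 46 chaperones listed, 32 were matched, and Hsp83, Hsp22, Hsp23 and the Hsp70A and Hsp70B genes were not among them. The 32 had lower values in the cold phase in 24 cases (75%, beside 59.4% of all genes), and the weight of this lay in CA. Their median was -0.08 over both days, -0.19 in CA and -0.0052 in AA. On both days 19 (59.4%, beside 45.7% of all genes) had the same sign, 14 of them lower. Of the 6 (18.8%, beside 3.62%) with an unadjusted limma p under 0.05, 5 were lower and Hsc70-4 was higher. DnaJ-1, an Hsp40 co-chaperone, read 6.77, 6.68 and 7.08 against 7.74, 7.97 and 7.36 in CA, a difference of -0.85, and differed by -0.0010 in AA. Stip1, which links Hsp70 and Hsp90, differed by -0.77 and -0.0093. A shared sign in these genes therefore stands for a difference in CA beside almost none in AA. The chaperonin subunits CCT5 (-0.38 and -0.04), CCT6 (-0.24 and -0.07) and CCT1 (-0.18 and -0.07) were the others on the lower side.

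Cytosolic ribosomal protein genes had lower values in 31 of 37 cases (83.8%, beside 59.4% of all genes), by small amounts. Their median was -0.07, with -0.04 in CA and -0.10 in AA, and 24 (64.9%, beside 45.7% of all genes) had the same sign, 22 of them lower. Only 2 (5.41%, beside 3.62%) had an unadjusted limma p under 0.05. RpL32 differed by -0.11 in CA and -0.13 in AA, and RpS21 by -0.11 and -0.13. RpLP2, an acidic stalk protein, stood on the other side at 0.47 (SE 0.16, limma adjusted p = 0.994), with 11.83, 11.97 and 11.82 against 12.02, 10.91 and 11.93 in CA and 11.73, 11.66 and 11.98 against 11.28, 10.999 and 11.06 in AA. The AA 2-h array had the lowest median of the list, -0.15. Mitochondrial ribosomal protein genes were lower in 47 of 64 (73.4%, beside 59.4% of all genes), with a median of -0.04, and 30 of them were lower on both days. Only mRpL50 and mRpS31 (3.12%, beside 3.62%) had an unadjusted limma p under 0.05.

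**Figure D5:**
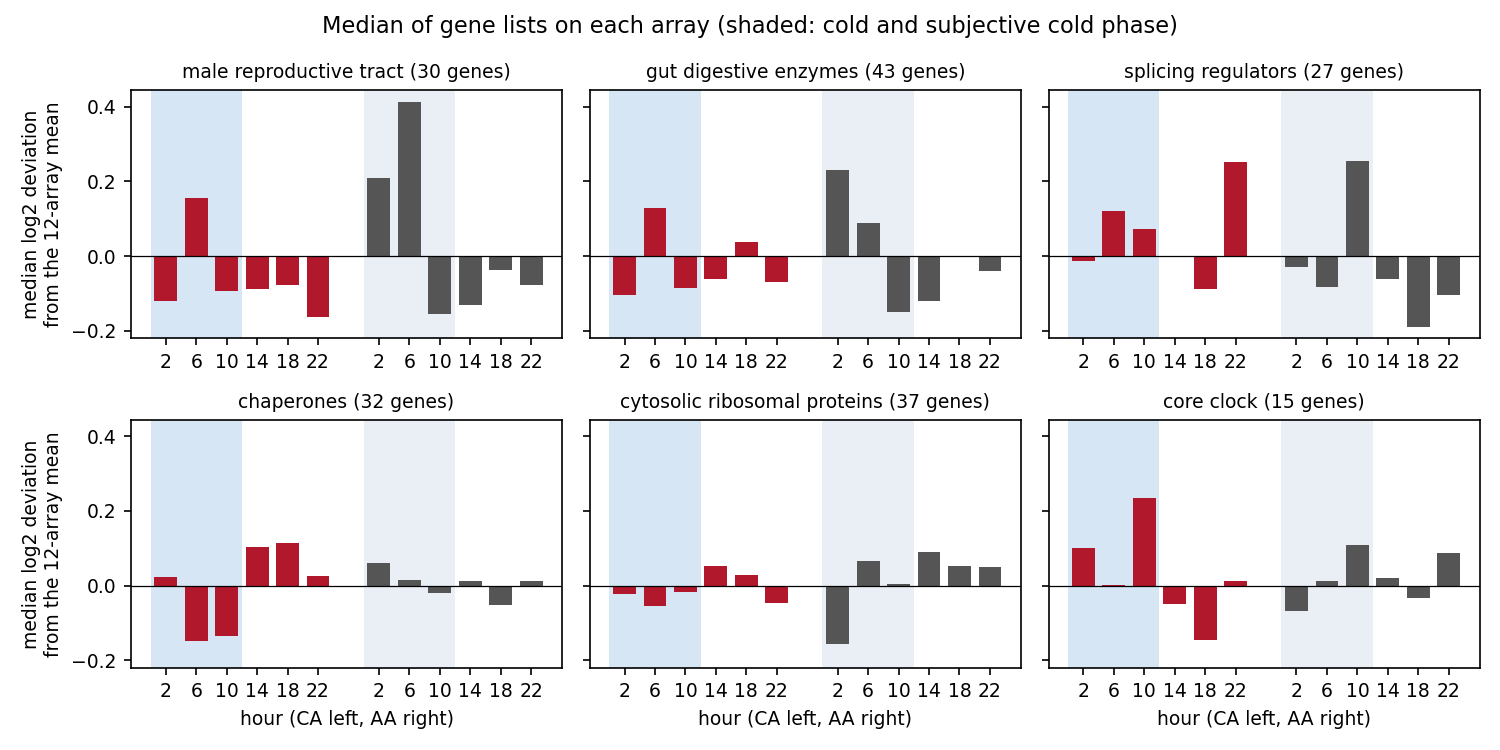
Median deviation of 6 gene lists from the 12-array mean, in log2 signal, on each array by hour, with CA on the left and AA on the right of each panel. The male reproductive and gut lists stand above 0.05 only on the CA 6-h, AA 2-h and AA 6-h arrays, and the splicing list is highest on CA 22 h and AA 10 h (0.25 each).

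In the remaining lists 0 to 3 members on either side had an unadjusted limma p under 0.05, and no member passed. Cuticle proteins were lower in 65 of 91 genes (71.4%, beside 59.4% of all genes), with 51 (56.0%, beside 45.7%) of the same sign and a median of -0.03, and 3.30% of them had an unadjusted limma p under 0.05, beside 3.62% of all genes. Cytochrome P450 genes had a median of 0.0077 and 36 of 83 with the same sign (43.4%). Genes of photoreceptors had a median of -0.0055, those of neurons 0.02, of glia 0.05, of the fat body 0.03 and of muscle 0.03, and 23.1% to 50% of their members had the same sign. In the neuron list VGlut, the vesicular glutamate transporter, differed by 0.45 (0.22 in CA and 0.68 in AA) and the potassium channel gene eag by 0.16 (0.17 and 0.16). In the thermosensor list 10 of 14 genes were lower in the cold phase (71.4%, beside 59.4% of all genes), and the median was -0.008. Only 1 (7.14%, beside 3.62%) had an unadjusted limma p under 0.05. Against most of this list, nocte, a gene needed for setting the clock by temperature, was higher by 0.29 (SE 0.09), with 0.13 in CA and 0.45 in AA. Antimicrobial peptide genes had a median of -0.0078, and their most abundant member named here, Drs, had differences of -0.32 in CA and -0.25 in AA (limma adjusted p = 0.994). The glutathione transferase gene GstD1 had -0.28 and -0.12, and the P450 gene Cyp6a8 0.38 and 0.22.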

How the data were processed

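The deposited log2 signals were made by the authors with RMA, which the submitters' notes and the methods name without a version; it corrects the background, normalizes by quantiles and summarises the probes of each Affymetrix Drosophila Genome 1 probe set. No further normalization was applied. Of 14010 probe sets, 44 controls were set aside and 13966 tested. Of these, 12443 had 1 gene symbol, 327 several and 1196 none, and 12394 symbols were updated through the gene table of the Release 6 plus ISO1 MT assembly. For lists, the probe set of highest mean stood for each of 10844 genes.

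Arrays were grouped by day and phase from the labels. The phase difference was fitted with limma 3.58.1 in R 4.3.3 on all 12 arrays with day as a term (9 residual and 4.92 prior degrees of freedom), two-sided, with Benjamini-Hochberg adjustment over all tested probe sets and a threshold of 0.05. Differences within a day, and the change between days, came from a limma fit of 4 group means. The number of arrays limits the precision. The fit was tested on simulated data.

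The named genes were the 12 probe sets with the smallest p on each side (1 gene, same sign on both days, mean above the 20th percentile of the arrays), all core clock genes, and, from the other lists, 2 members each by smallest p. Not all of the last are described. The comparison, its members and the 32 gene lists (664 entries) were chosen with earlier results of these data known. Other names were chosen after their values were seen. Clock times were not taken as pairs: residuals of same-time arrays correlated by -0.31 to 0.17 over probe sets. Sequences were not used here. Columns of no sample numbered 0. Alternatives were another model, prior or weighting, a filter, median centring, and leaving out arrays.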

Additional observations from a re-analysis of the deposited data

Results flagged for a closer look

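Among 198 sets of 6 arrays (each named probe set in each phase of the day), 11 had an array far from the other 5 by Dixon's ratio at its 95% critical value, and chance flags about 1 set in 20. On the CA 18-h array, within the warm phase, vri was the lowest of 6 at 7.855 (highest 8.58), cwo the lowest at 5.337 (highest 6.44) and the phospholipid synthesis gene Pect the lowest at 5.532 (highest 6.57). On the same array the antimicrobial peptide gene Drs was the highest at 9.038 (lowest 8.10), Idh of the tricarboxylic acid cycle the highest at 10.563 (lowest 9.40), speck the highest at 7.699 (lowest 6.76) and alphaTry the highest at 5.056 (lowest 4.68). This was the array with the low spike-in signal. On the CA 6-h array, within the cold phase, the immune regulator PGRP-LB was the highest at 6.075 (lowest 5.81) and the proteasome gene Rpn8 the lowest at 5.036 (highest 5.18). In the warm phase of AA, CG8997 was the lowest at 2.823 at 18 h (highest 3.11), and Mst57Da the highest at 5.401 at 22 h (lowest 4.99), although its 3 high cold arrays read 6.66 to 7.66.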

How the results depend on the processing

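In limma 0 probe sets passed with all arrays and in each alternative, and the smallest adjusted p in any was 0.197, without the CA 22-h array. The count at an unadjusted p under 0.05 with the same sign was 529. It was 883 without the 2- and 14-h arrays and 394 to 821 when any 1 array was left out, the last without the CA 22-h array; the cause was not tested. The share with the same sign was 45.0%, 52.7% without the 2- and 14-h arrays, and 42.1% to 51.1% without any 1 array, and the share of CA-picked probe sets with the same sign in AA was 21.6% to 44.6% without any 1 array. With clock time as a random replicate block (consensus correlation -0.03) 0 probe sets passed and 563 counted as above, so the block changed no call. Of the genes named by rule, tim, cyc and Pdfr, all near 0, changed sign when 1 array, or the 2- and 14-h arrays, were left out. tim was -0.04, and -0.0881 to 0.0271 without any 1 array (above 0 without AA 2 h). cyc was -0.02, 0.0473 without the 2- and 14-h arrays, and -0.0481 to 0.0199 without any 1 array (above 0 without CA 14 h or AA 2 h). Pdfr was 0.0090, -0.0418 without the 2- and 14-h arrays, and -0.0233 to 0.0551 without any 1 array (below 0 without CA 2, CA 10, CA 14 or AA 10 h). In settings added after the data were seen, leaving out the CA 6-, AA 2- and AA 6-h arrays gave 0.0859 for tim and 0.0557 for cyc, and 0.0549 and 0.0491 without the CA 18-h array as well. In the first of these settings 4 members of other lists changed sign too: Mst57Da was 0.94 and became -0.0175, alphaTry 0.56 and -0.0586, Anp 0.28 and -0.0384, and CG8997 0.26 and -0.0131, as did EbpII and Cyp4g1 (values given above). In the second, Mst57Da was -0.0124, Anp -0.0296 and Acp95EF -0.0190. The cause was not tested. The medians of the chaperone, ribosomal protein and splicing lists kept their sign in every setting.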
